A study of Homo sapiens with 2 samples.

Results

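The Rb peaks of chromosome 21 were described in VCaP and LNCaP, human prostate cancer cell lines, with attention to the stretch from ERG to TMPRSS2. All rows on chromosome 21 (build hg19) of both lines' peak lists were taken, 468 of 31417 rows, of which 188 of 9423 were from VCaP and 280 of 21994 from LNCaP. Each peak was placed by its summit, the position with most tags, in 1 of 3 stretches: below 39.75 Mb, from 39.75 to 42.9 Mb (the ERG-TMPRSS2 interval) and above 42.9 Mb. The rule uses no measured value.

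Rb, the retinoblastoma protein, restrains the cell cycle, largely by binding E2F transcription factors at the promoters of genes for DNA replication and cell division. TMPRSS2 is a serine protease gene driven by androgens in prostate epithelium, and ERG encodes a transcription factor of the ETS family. Rearrangement of the DNA between them can join the TMPRSS2 promoter to ERG, a fusion known in VCaP and absent from LNCaP, and both lines express the androgen receptor.

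The measurement was chromatin immunoprecipitation followed by sequencing (ChIP-seq). Cells of both lines, at passage 10 to 15, were held for 3 days in 5% charcoal/dextran-treated serum, which is poor in steroid hormones, and then given 10 nM DHT (dihydrotestosterone, an androgen) for 4 h. Chromatin was fixed with formaldehyde, sonicated and precipitated with the mouse monoclonal Rb antibody 4H1. VCaP is represented by 1 library of 8691938 tags after removal of duplicates and LNCaP by 1 library of 3671482 tags, so no difference between the lines has a replicate check. DHT was given in both, and cells without DHT and input chromatin were not analysed here.

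Chromosome 21 held relatively more VCaP peaks than any other chromosome. VCaP contributed 188 of its 468 peaks, or 40.2% (exact Clopper-Pearson 95% interval 35.7 to 44.8%), the highest share of the 23 chromosomes. The share was 29.96% (29.5 to 30.5%) over chromosomes 1 to 22 and X. Chromosome 13 came next with 36.3% (32.4 to 40.3%), an interval that overlaps that of chromosome 21. Intervals printed throughout are of this kind and cover counting error only, and peaks are not replicates. The excess was seen in each of the 3 stretches. Below the interval the lists held 111 VCaP and 175 LNCaP peaks (VCaP share 38.8%, 33.1 to 44.7%). Inside it they held 18 and 26 (40.9%, 26.3 to 56.8%), and above it 59 and 79 (42.8%, 34.4 to 51.5%). The ERG-TMPRSS2 interval, with an interval of the share that takes in both the neighbouring stretches and the level of all chromosomes, did not stand apart at these numbers.

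The size of the excess depended on the threshold. Among peaks with a fold enrichment of at least 5, VCaP held 33.5% of chromosome 21 (28.3 to 39.1%) and 28.3% of all chromosomes, which is at the edge of that interval. In the lower stretch the share was then 29.1%, near the level of all chromosomes. When the LNCaP list was cut to its highest 9393 peaks, the length of the VCaP list, VCaP held 65.7% of chromosome 21 (59.9 to 71.2%) against 50% of all chromosomes.

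**Figure D1:**
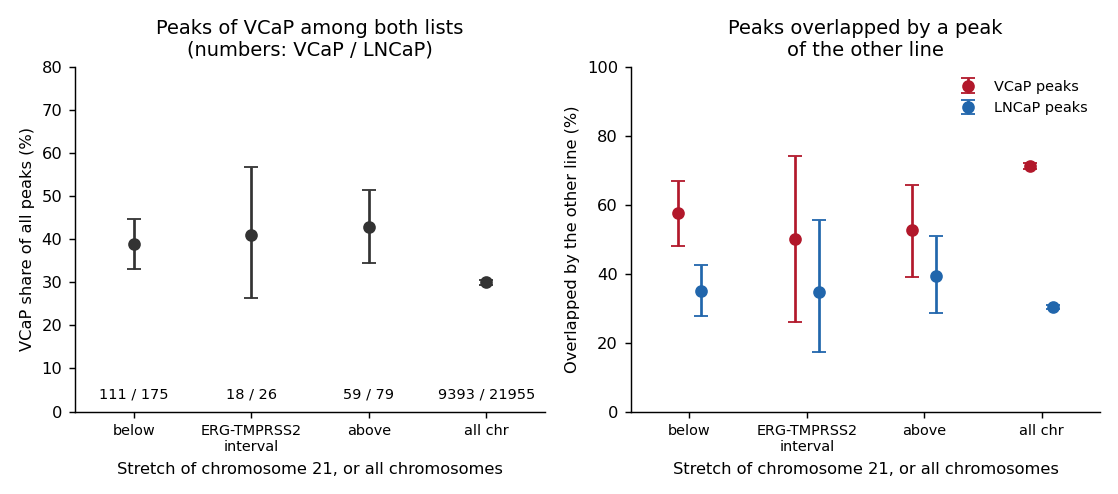
Left, the VCaP share of the peaks of both lists (percent) in each stretch of chromosome 21 and over chromosomes 1 to 22 and X; right, the percent of each list's peaks with an overlapping peak in the other list; bars are exact 95% intervals. The VCaP share lay between 38.8 and 42.8% in the 3 stretches against 29.96% over all chromosomes, and the overlapped share of VCaP peaks between 50 and 57.7% against 71.2%.

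The stretches differed more in peak density than in the balance of the lines. Peaks per Mb rose from 3.66 in VCaP and 5.77 in LNCaP below the interval (from the first summit on) to 5.71 and 8.25 inside it and 11.3 and 15.1 above it. By gene order in RefSeq (GRCh38.p14, used for names and order only), 18 protein-coding genes run from ERG to TMPRSS2, with 120 before ERG and 78 after TMPRSS2 on the chromosome. Among the 18 are ETS2, a transcription factor related to ERG, HMGN1, a protein that binds nucleosomes, PSMG1, a proteasome assembly chaperone, BACE2, a protease, and MX1 and MX2, GTPases induced by interferon. Per gene there were 1.00 VCaP and 1.44 LNCaP peaks in the interval, 0.925 and 1.46 below it and 0.756 and 1.01 above it. Both outer stretches hold clusters of keratin-associated protein genes, hair proteins of which 33 lie before ERG and 16 after TMPRSS2. Without these, peaks per gene were 1.28 in VCaP and 2.01 in LNCaP below the interval and 0.952 and 1.27 above it. Counted per gene, the interval was thus close to the stretch below when all genes entered, and lower when the keratin-associated genes were left out. The stretch below includes 11 VCaP and 36 LNCaP peaks below 15 Mb, around the centromere, and peaks per gene without them were not computed.

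Fewer VCaP peaks were shared with LNCaP on chromosome 21 than on most chromosomes. Of its 188 VCaP peaks 104, or 55.3% (47.9 to 62.6%), shared at least 1 bp with an LNCaP peak, against 71.2% of VCaP peaks over all chromosomes. Only chromosome 13, with 52.6%, had a lower share among the 23. In the other direction 101 of 280 LNCaP peaks, or 36.1% (30.4 to 42.0%), were overlapped, against 30.2% over all chromosomes. In the interval 9 of 18 VCaP peaks (50%, 26.0 to 74.0%) and 9 of 26 LNCaP peaks (34.6%, 17.2 to 55.7%) were overlapped. The shares were 57.7% (64 of 111) and 34.9% (61 of 175) below it, and 52.5% (31 of 59) and 39.2% (31 of 79) above it, so the 3 stretches lay within each other's intervals. With peaks of −log10 q of at least 5, the overlapped share of VCaP peaks was 66.0% on chromosome 21 and 75.9% over all chromosomes, and with summits within 200 bp it was 46.3 and 59.01%. With lists of equal length it was 32.4 and 52.02%. Where each peak had to cover 50% of the other, the gap was small, with 39.9 and 42.8%.

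Shared sites of the interval are given with both lines' values, since they are the places where both lines can be read at the same position. The fold enrichment is the caller's ratio of summit tags to the local background of the same library, with a constant added to both. The constant lowers the ratio most where the background is low. Pileup is the number of extended tags over the summit, not scaled to depth. The highest fold enrichment of the interval was found at chr21:40555187-40555848 (VCaP peak), 5.51 in VCaP and 8.57 in LNCaP, with a pileup of 21 in each. At chr21:40685571-40685823 VCaP had a fold enrichment of 6.41 and LNCaP one of 7.09, with pileups of 22 and 23. These were the highest VCaP pileups of the interval. By fold enrichment the sites ranked 4693 and 2408 among 9393 VCaP peaks, so neither was near the top of that list.

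Sites at chr21:42440997-42441254 (5.98 in VCaP and 7.27 in LNCaP), chr21:42791956-42792276 (5.59 and 7.22) and chr21:42539757-42540329 (4.53 and 6.66) also had the higher fold enrichment in LNCaP. In 4 sites the VCaP value was the higher. They were chr21:41160353-41160597 (6.91 in VCaP, 6.83 in LNCaP), chr21:40032628-40032866 (5.48 and 5.31), chr21:40105822-40106152 (5.48 and 3.92) and chr21:42218948-42219210 (4.43 and 3.32). LNCaP pileups at these 4 sites were 8, 7, 5 and 4 tags, so their LNCaP values rest on few tags. The backgrounds there were 13.2, 21, 22 and 21 tags per 10 kb in LNCaP, against 52, 69, 69 and 86 in VCaP. The constant in the fold enrichment thus lowers the LNCaP values more. The order of the lines at these 4 sites may rest on it, which was not tested. The summits of the 9 shared sites lay 7 to 127 bp apart (median 48).

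**Figure D2:**
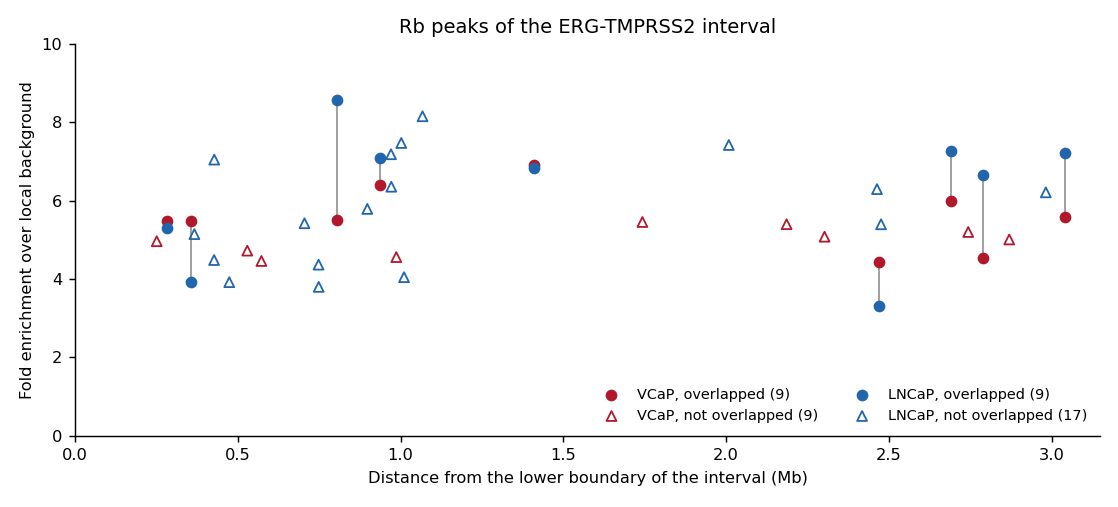
Fold enrichment over local background of each Rb peak in the ERG-TMPRSS2 interval against its distance in Mb from the lower boundary; filled circles are peaks overlapped by the other line, joined by a grey line to their partner, and open triangles are peaks without overlap. VCaP values ran from 4.43 to 6.91 and LNCaP values from 3.32 to 8.57, and no peak of either line reached 10.

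The unshared peaks of the interval with the highest fold enrichment were LNCaP peaks. The LNCaP peaks chr21:40817327-40818068 (8.16), chr21:40752026-40752364 (7.47), chr21:41758299-41758565 (7.42), chr21:40720477-40721059 (7.19) and chr21:40177428-40178172 (7.05) led, with pileups of 16, 18, 10, 19 and 21. Next were chr21:40721356-40721742 (6.36), chr21:42213506-42214139 (6.30), chr21:42732175-42732462 (6.21), chr21:40647738-40647984 (5.79) and chr21:40454672-40454934 (5.42). From 40647738 to 40818068 the LNCaP list thus held 5 of these 10 peaks beside the shared site at 40685571. The highest unshared VCaP peaks, chr21:41492798-41493108 (5.46, pileup 9) and chr21:41935825-41936368 (5.40, pileup 14), lay below 9 and 10 of these 10, in that order. The other 15 of the 35 sites in the interval had a highest fold enrichment between 3.801 and 5.40, among them the shared site at 42218948. No unshared VCaP peak of the interval had an LNCaP summit closer than 15.2 kb, and no unshared LNCaP peak had a VCaP summit closer than 5.25 kb, so none was a near miss of the overlap rule.

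At the lower boundary both lists had a longer gap between summits than their median gap inside the interval. A shared site at chr21:39727981-39728266, with 7.26-fold enrichment in VCaP and 5.97-fold in LNCaP, lay just outside, its summit 21.8 kb (VCaP) and 21.97 kb (LNCaP) below the lower boundary. The first summits inside followed 251 kb (VCaP) and 283 kb (LNCaP) after that boundary, the last preceded the upper boundary by 108 kb in both, and the first above it came after 32.6 kb in VCaP and 8.46 kb in LNCaP. Within the interval the longest stretch between neighbouring summits was 443 kb in VCaP and 598 kb in LNCaP, with medians of 130 and 57.0 kb. The peaks were not assigned to ERG, TMPRSS2 or the 16 genes between them, because an annotation of build hg19 was not used here.

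Peaks of the outer stretches reached higher values. A fold enrichment of at least 10 was reached by 5 of 188 VCaP peaks of chromosome 21 (2.66%, against 3.32% over all chromosomes) and 13 of 280 LNCaP peaks (4.64%, against 8.02%). None of the 18 VCaP and 26 LNCaP peaks of the interval reached it, which allows shares of up to 18.5% and 13.2%. Median fold enrichment in VCaP was 5.05 below (quartiles 4.40 and 5.92), 5.30 inside (4.79 and 5.50) and 5.42 above the interval (4.45 and 5.87). In LNCaP it was 5.97 (5.22 and 7.20), 6.25 (4.65 and 7.16) and 5.31 (4.55 and 6.10). The medians over all chromosomes were 5.51 in VCaP and 6.00 in LNCaP. LNCaP peaks above the interval were thus lower than elsewhere on the chromosome at the median, and the quartiles of all 3 stretches overlapped in each line.

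Below the interval the highest shared site was chr21:11186441-11186991, beside the centromere, with 18.3-fold enrichment in VCaP (pileup 105) and 21.7-fold in LNCaP (pileup 76). On the long arm chr21:37757480-37757934 had 11.4 and 15.7, chr21:34960526-34961371 had 10.3 and 14.2, and chr21:33104516-33104859 had 8.43 and 14.1. The remaining 2 of the 6 best ranked shared sites were chr21:9695901-9696243 (7.74 and 12.6) and chr21:26979599-26979976 (7.62 and 11.0). All 6 had the higher value in LNCaP, as had 80.8% of overlapping pairs over all chromosomes. The 4 highest unshared peaks had fold enrichments of 5.85 to 7.54 in VCaP and 8.76 to 10.6 in LNCaP, led by chr21:10085506-10085922 in VCaP and chr21:17102006-17102926 in LNCaP.

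Above the interval the highest peak of either line was called in VCaP alone. It lay at chr21:44343936-44344399, with a fold enrichment of 15.1 and a pileup of 55, rank 43 of 9393 VCaP peaks, and no LNCaP peak overlapped it. The next unshared VCaP peak there, chr21:44608846-44609108, had 6.50. The highest unshared LNCaP peak, chr21:43916227-43917037, had 9.62. Among shared sites chr21:44394118-44394804 had 8.95 in VCaP and 10.1 in LNCaP, chr21:47878318-47879038 had 6.57 and 10.5, and chr21:45079038-45079659 had 9.74 and 8.48. At chr21:46359328-46359870 the values were 8.68 and 6.995, at chr21:45759023-45759493 they were 6.00 and 8.74, and at chr21:46221661-46222000 they were 6.33 and 7.72. LNCaP was thus the higher in 4 of these 6 sites and VCaP in 2, against 80.8% of pairs with LNCaP higher over all chromosomes. With 6 sites named in each outer stretch, these counts do not set the stretches apart.

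LNCaP had the higher fold enrichment in most overlapping pairs of each stretch, by a smaller majority above the interval than below it. Over the chromosome LNCaP was higher in 75 of 104 pairs, or 72.1% (62.5 to 80.5%), against 80.8% over all chromosomes. An LNCaP peak enters once for each VCaP peak paired with it. The 64 pairs below the interval thus hold 61 LNCaP peaks and are not all independent. The share was 82.8% (53 of 64, 71.3 to 91.1%) below the interval, 55.6% (5 of 9, 21.2 to 86.3%) inside it and 54.8% (17 of 31, 36.03 to 72.7%) above it. The median log2 ratio of fold enrichment, VCaP over LNCaP, was −0.46, −0.14 and −0.094 in the same order and −0.40 over all chromosomes. Above the interval the lines were thus nearly level at the median pair. The constant in the fold enrichment weighs most on peaks with a low background, and its part in these shares and medians was not tested.

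**Figure D3:**
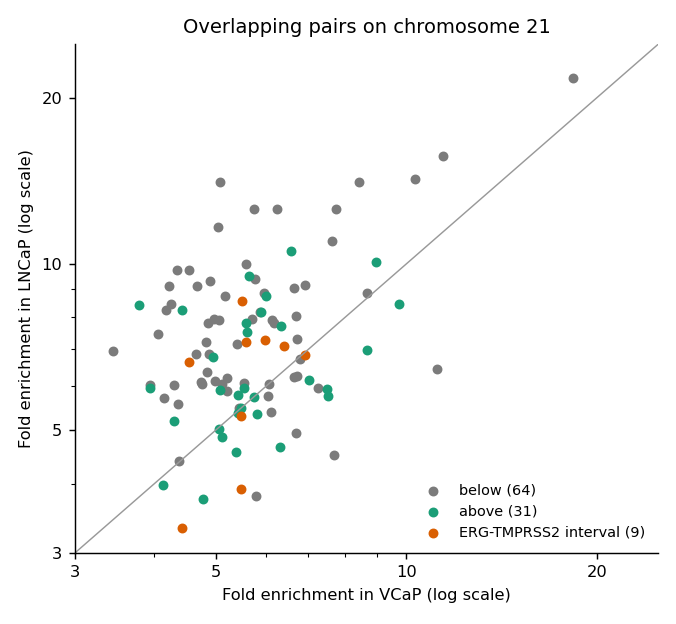
Fold enrichment in LNCaP against that in VCaP (log axes) for the 104 overlapping pairs of chromosome 21, coloured by stretch; the line marks equal values. Of the 64 pairs below the interval 53 lie above the line, against 5 of 9 inside and 17 of 31 above the interval.

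The tags in the 10 kb window around each shared site, which the peak caller used as local background and which include the peak's own tags, were relatively fewer in VCaP above the interval than in the other stretches at the median pair. They were compared as log2 ratios, VCaP divided by LNCaP, each per 1000000 tags of its library. Over all chromosomes the median of 6688 pairs was −1.24, with quartiles of −1.69 and −0.74. Chromosome 21 had a median of −0.63, the highest of the 23 chromosomes. The median was −0.42 (−0.69 and −0.049) over the 64 pairs below the interval, 0.10 (−0.21 and 0.47) over the 9 inside and −1.09 (−1.34 and −0.88) over the 31 above. None of the 31 pairs above the interval had relatively more VCaP tags, against 14 of 64 below it and 6 of 9 inside. Over all chromosomes 383 of 6688 pairs had, so in this count the stretch above was the nearest of the 3 to all chromosomes. The pileup ratio, whose median over all chromosomes was −1.75, had medians of −1.34, −0.90 and −1.39, so that stretch stood less apart in the tags over the summits. For the window ratio the interval shared much of its range with the stretches on either side, from −1.03 to 0.79 against −2.67 to 1.31 below and −1.63 to −0.15 above.

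In the interval the single values ran without a trend along the DNA. From the ERG end they were 0.47 at 40032628, 0.41 at 40105822, −0.21 at 40555187, −1.03 at 40685571, 0.74 at 41160353, 0.79 at 42218948, 0.068 at 42440997, 0.10 at 42539757 and −0.86 at 42791956. The window counts behind them were 51 to 133 tags in VCaP and at most 99 in LNCaP. At 41160353 the LNCaP background was the genome mean, 13.2 tags per 10 kb, so the window held at most about that many and the ratio there is a lower limit. The values closest to the median of the stretch above, −1.09, were −1.03 at 40685571 and −0.86 at 42791956, the site nearest the TMPRSS2 end.

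Window tags also differed between the stretches within each line. Median window tags over all peaks were 96 below, 68 inside and 95 above the interval in VCaP, and 37, 33 and 79 in LNCaP, against 68 and 51 over all chromosomes. LNCaP window tags are the denominator of the ratio, so a split on them gives lower ratios above the limit and higher ones under it by construction, and each value is read only against all chromosomes under the same limit. Among pairs whose LNCaP window held at least 50 tags, a limit chosen after seeing the data, the median ratio was −0.64 below the interval (45 pairs), −0.21 inside (3 pairs) and −1.09 above (31 pairs), against −1.42 over all chromosomes. Among pairs with fewer than 50 LNCaP tags it was 0.40 below (19 pairs) and 0.44 inside (6 pairs), against −0.54 over all chromosomes. At either level of LNCaP tags, the medians on chromosome 21 were above those of all chromosomes, and no pair above the interval had under 50. The part of window depth in the difference between the stretches was not tested.

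**Figure D4:**
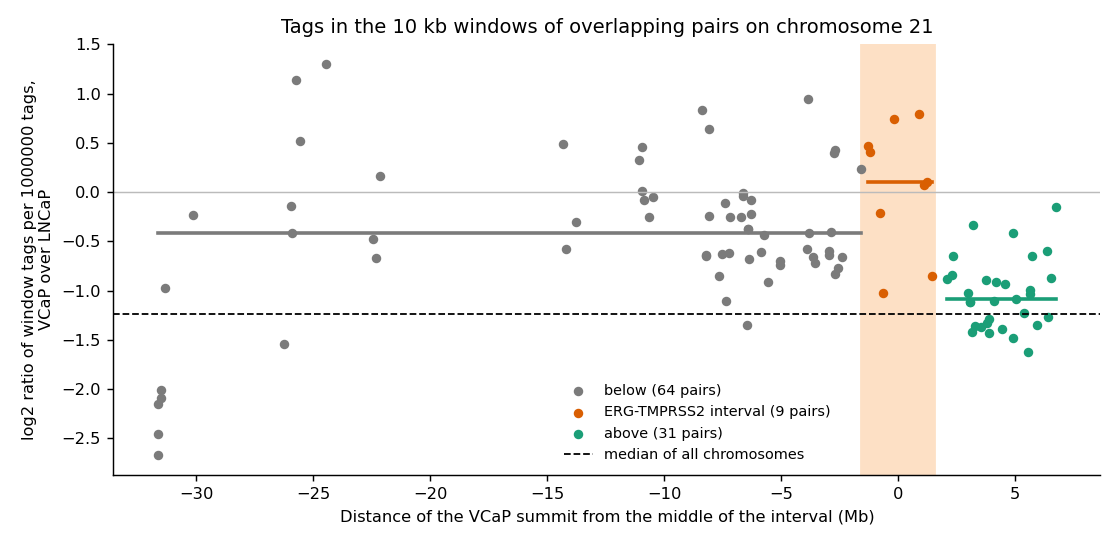
Log2 ratio of depth-scaled tags in the 10 kb windows, VCaP over LNCaP, for each of the 104 overlapping pairs against the distance of its VCaP summit from the middle of the ERG-TMPRSS2 interval (Mb, interval shaded); solid lines are medians of the stretches and the dashed line that of all chromosomes. The medians are −0.42 below, 0.10 inside and −1.09 above the interval, against −1.24 over all chromosomes.

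Finer sections give the values along the chromosome. Their limits were chosen after the values were seen, so they cannot show where the values change. Below 15 Mb, around the centromere, 11 VCaP and 36 LNCaP peaks were called, and the 7 pairs had a median window ratio of −2.09, with up to 467 tags in a LNCaP window. The median was 0.014 from 15 to 27 Mb (10 pairs), −0.051 from 27 to 33 Mb (9), −0.41 from 33 to 36 Mb (22) and −0.62 from there to the interval (16). Inside the interval it was 0.10 both up to 41 Mb (4 pairs) and beyond (5 pairs), and above it −1.07 up to 45 Mb (10 pairs) and −1.09 beyond (21 pairs). In the part of the interval up to 41 Mb 8 VCaP and 17 LNCaP peaks were called (VCaP share 32%, 14.9 to 53.5%). Beyond it 10 and 9 were called (52.6%, 28.9 to 75.6%). These intervals overlap, and the first share is near the 29.96% of all chromosomes.

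**Figure D5:**
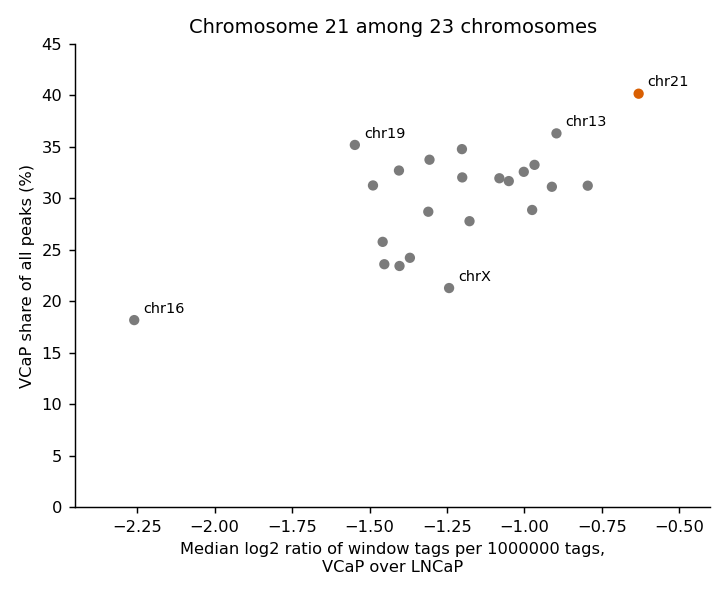
VCaP share of the peaks of both lists (percent) against the median log2 window ratio of overlapping pairs, VCaP over LNCaP, with 1 point for each of chromosomes 1 to 22 and X. Chromosome 21 (orange) has the highest value on both axes, 40.2% and −0.63.

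Chromosome 21 thus held both the highest VCaP share of peaks and the highest median window ratio of the 23 chromosomes, as the plot of chromosomes shows. Chromosome 16 lay at the other end of both measures, with a share of 18.2% and a ratio of −2.26. The stretch above the interval had the highest VCaP share of the 3 stretches, 42.8%, and the lowest window ratio, −1.09. That ratio was near the −1.24 of all chromosomes. All 31 of its pairs had at least 50 LNCaP window tags, and under that limit the median of all chromosomes was −1.42.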

How the data were processed

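Rb ChIP-seq was analysed from the authors' peak lists of 1 VCaP and 1 LNCaP library, grouped by the labelled line. MACS 2.1.0.20140616 was run by the authors on each library alone, per the file headers, without a control, at a q-value limit of 0.05, with 75 bp tags, 1 tag kept per position, a fragment length of 225 bp (VCaP) or 241 bp (LNCaP) and a 10 kb local background. The submitters' processing notes name hg19, MACS2 and HOMER; the aligner is not given in the sources used here. The deposited pileup is a coverage signal at the summit. The deposited fold enrichment is a ratio of pileup to local background with a constant added to both, which was allowed for in computing the background. The deposited significance is given as −log10 p and −log10 q. Peak lengths are in bp. All scores are the authors' values for each peak in its own library, and were used to describe, rank and filter.

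Window tags were computed back from pileup and fold enrichment. They came out whole within 0.05 tags for the 188 VCaP and 260 LNCaP peaks of chromosome 21 whose background exceeded the genome mean; the other 20 LNCaP peaks were at that mean (13.2 tags per 10 kb). Overlap meant at least 1 shared bp, with the partner of highest fold enrichment taken. The comparison level was chromosomes 1 to 22 and X, chromosome 21 included. Medians, quartiles and exact 95% Clopper-Pearson intervals were computed with Python 3.11.15, pandas 2.3.3 and scipy 1.17.1. The code of the overlap and window steps was run on simulated peaks built with the same formula. That run checks the code, and neither the formula nor peaks with several partners. With 1 library per line no test between lines was made. Depth was 8691938 tags in VCaP and 3671482 in LNCaP, and counts of peaks and overlaps depend on it.

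Named were the 20 highest sites of the interval and, in each outer stretch, the 6 shared sites with the best worse rank over both lists and the 4 highest unshared peaks of each list (values in full for some, the rest by range). The shared site at 42218948 and that at 39727981 were named after their values were seen. The stretches, lists and comparisons were chosen with earlier results of these data known. Alternatives were stricter thresholds, lists of equal length, other overlap rules, a wider interval, leaving out summits below 15 Mb and windows without summit tags. Genes were taken from RefSeq (GRCh38.p14) by name and order only; no coordinates were converted, and no annotation or genome of hg19 was used here.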

Additional observations from a re-analysis of the deposited data

How the results depend on the processing

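VCaP shares, overlapped shares, medians of the scores and median ratios of pairs (window, pileup and fold enrichment) were recomputed in the 3 stretches. Each was recomputed under the alternatives that bear on it, giving 135 values. Every value was set against the interval of the reported one, the exact counting interval for shares. For medians it was an order-statistic interval, which reflects the spread among peaks or pairs. It was wide where pairs were few, from −0.86 to 0.74 for the window ratio of the ERG-TMPRSS2 interval. Of the 135 values, 98 stayed within the interval of the reported one, 34 moved outside it and 3 changed sign. Peaks per Mb and per gene, the share of pairs with LNCaP higher and the finer sections were not recomputed. The 3 were the median window ratio of the interval, reported as 0.10 over 9 pairs: it was −0.071 with −log10 q of at least 5 (4 pairs), −0.071 with fold enrichment of at least 5 (6 pairs) and −0.21 with at least 50 LNCaP window tags (3 pairs), a limit that lowers the ratio by construction, so its sign is not settled by these data. With −log10 q of at least 5 the VCaP overlapped share below the interval was 69.4%. Stricter thresholds raise the scores by construction. With that limit, the VCaP and LNCaP medians below the interval were 5.78 and 6.73 for fold enrichment, 19 and 17 for pileup and 376 and 442 bp for length, and above it 5.82 and 5.93, 17.5 and 18, and, for LNCaP length, 442.5 bp. With fold enrichment of at least 5, the VCaP share below was 29.1%, the LNCaP overlapped share there 26.6%, fold enrichment 5.88 and 6.31 and VCaP length 371 bp; above the interval fold enrichment was 5.78 and 5.93, LNCaP pileup 18 and LNCaP length 422.5 bp. Lists of equal length, which drop LNCaP peaks by construction, gave VCaP shares of 62.0, 60 and 76.6% below, inside and above the interval, overlapped shares of 37.8% (VCaP) and 57.4% (LNCaP) below, and 22.03 and 72.2% above. Reciprocal overlap of 50% gave 40.5% (VCaP) and 25.7% (LNCaP) below and 39.0% (VCaP) above, and summits within 200 bp gave 45.9% (VCaP) below. The window ratio below the interval was −0.094 without summit tags, for which the cause was not tested, and −0.64 with at least 50 LNCaP window tags. Gaps of up to 1 kb, an interval wider by 250 kb on each side, pairs up to 5 kb apart and leaving out summits below 15 Mb moved none of the values they were applied to outside its interval. Pairs up to 5 kb apart, the limit of 50 tags and the limits of the finer sections were chosen after seeing the data. The count of peaks at gene starts was not run, for lack of an annotation of the files' build here. No paired analysis was possible because each line has 1 library and no comparison comes from a test. With 18 and 26 peaks the interval's shares have wide counting intervals, and pileups of 4 to 8 tags limit its weakest LNCaP peaks.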
